A study of Mus musculus with 12 samples.

Results

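Cortical neurons kept with erinacine S, a sesterterpenoid made by the mycelium of the mushroom Hericium erinaceus, were compared between 16 h and 48 h of treatment. The cells came from the cortex of C57BL/6J embryos at E17.5, freed of meninges, and total RNA was sequenced. They were plated in medium with serum and moved after 3 h to serum-free Neurobasal medium with B27. Erinacine S at 1 µg/mL, or its solvent DMSO in the control dishes, was added 1 h later and stayed on the cells for 16 h or 48 h. The comparison takes 6 of the 12 libraries of the series, 3 at 16 h and 3 at 48 h with erinacine S (ES), and the 6 DMSO libraries of the same times stand beside it. All groups carry the same strain, age, dissection and medium, so within ES the time in culture and the time with the compound cannot be told apart. Each group holds 3 repeats said to be independent, with no litter, dish or day given, so that p-values reflect a spread between libraries that could be technical. Expression was deposited as TPM (transcript units that add up to the same sum in every library), a level per transcript length, and the read depth is unknown. The genes described are the 15625 of 51912 whose TPM averaged at least 1 over the 6 ES libraries. A change is the difference of the group means of log2(TPM + 1), 48 h minus 16 h, given with its standard error (SE), and a gene was called where limma gave an adjusted p under 0.05. This scale understates the change of genes at a low level.

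Cortical neurons taken late in gestation lose their neurites at dissociation and then polarise again, extend axons and dendrites, and begin to assemble synapses. As they mature they add ion channels, transmitter receptors and the chloride exporter that lets GABA inhibit, and they switch off genes of migration and early fate. Dissociation itself is known to set off stress and immediate early programmes in cultured brain cells.

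The libraries held the neuronal markers Tubb3 and Map2 at high levels, while the markers of other cell types differed widely in level. The neuronal tubulin gene Tubb3 stood at 1667 to 2385 TPM at 16 h and 2557 to 2924 TPM at 48 h (it lost its call without ES 16 h replicates 2 or 3 or ES 48 h replicates 2 or 3), and the dendritic protein Map2 at 506 to 515 TPM at 16 h and 577 to 728 TPM at 48 h. Of the listed markers, 12 of 15 astrocyte, 12 of 14 oligodendrocyte lineage, 11 of 17 microglia and macrophage, 2 of 14 endothelial and mural and 19 of 25 matrix and fibroblast genes reached the mean of 1 TPM. Defining markers under that mean were Aqp4 of astrocytes, Mog of mature oligodendrocytes, Cx3cr1, P2ry12 and Tmem119 of microglia, Cldn5 of endothelium and Col1a1 of fibroblasts, and the embryonic globin Hba-x was at 0 in all ES libraries. Fabp7 of radial glia and Olig1 of the oligodendrocyte lineage, given below, were well above 1 TPM in every ES library. The 12 tested astrocyte genes summed to 310 to 338 TPM at 16 h and 368 to 509 TPM at 48 h. The neuronal marker Slc17a7, also given below, stood far below Tubb3 and Map2. Replicate 1 stood apart at both times: across genes it correlated with the other libraries of its group at 0.984 to 0.987 at 16 h and 0.980 to 0.981 at 48 h, while replicates 2 and 3 correlated at 0.995 in both groups. In ES 48 h replicate 1 the summed level of the 40 replication and mitosis genes was 472 TPM, against 954 and 965 TPM in its replicates and 999 to 1085 TPM at 16 h. The 17 tested radial glia and progenitor genes summed to 454 TPM there against 1226 and 1251 TPM, and the mitochondrially encoded genes took 5.12% of its TPM against 7.29% and 7.32%. In RNA from a whole dish, fewer cells of a type and less RNA per cell cannot be told apart.

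From 16 h to 48 h, 4796 of the 15625 genes (30.7%) were called, 2364 higher (15.1%) and 2432 lower (15.6%). The counts of called genes in each list below stand beside these shares of all genes. The largest rises were in Rasgrf2, Fst and Adcy1, and the largest falls in Prl2c2, Spp1 and S100a6. Beyond 1 on the log2 scale 228 called genes rose and 278 fell, and beyond 2 there were 3 rises and 56 falls, some of them in genes such as Isg15 that passed the filter through their 16 h level. The median size was 0.50 for rises and 0.45 for falls. Of the called genes 4680 had no overlap between the libraries of the 2 times, which 44.9% of all tested genes also showed (50.4% in DMSO). The count was 3123 without ES 16 h replicate 2, 3454 without ES 16 h replicate 3 and up to 5059 without any other single library, and 0 of the called genes were called in the other direction there. It was 9353 where each library was weighted by its agreement with its group.

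Rasgrf2 (GRCm38 chr13:91880400-92131656, minus strand, like all gene positions here the span of the whole gene), an exchange factor for the GTPase Ras that responds to calcium, had the largest rise. Its levels were 2.54, 1.58 and 1.75 TPM at 16 h and 16.9, 16.2 and 12.9 TPM at 48 h (log2 change 2.47 ± 0.14, adjusted p = 1.9e-06). Fst (chr13:114452262-114458730, minus strand) encodes follistatin, a secreted binder of activins, and had 1.14, 2.05 and 2.05 TPM at 16 h and 11.3, 15.9 and 12.2 TPM at 48 h (log2 change 2.37 ± 0.19, adjusted p = 1.4e-05). Every 48 h library was several times above every 16 h library for both genes. Adcy1 (chr11:7063489-7178506, plus strand), the adenylate cyclase stimulated by calcium and calmodulin, rose from 17.2, 12.4 and 15.4 TPM to 105, 55 and 49 TPM (log2 change 2.07 ± 0.24, adjusted p = 0.00013). The limbic adhesion protein gene Lsamp (chr16:39984361-42181679, plus strand) went from 15.7, 18.6 and 19.1 TPM to 103, 66.6 and 53.5 TPM (log2 change 1.95 ± 0.18, adjusted p = 3.4e-05). For Adcy1 and Lsamp the 48 h replicate 1 was the highest library, and replicates 2 and 3 still lay far above the 16 h values. The remaining large rises, of 1.72 to 1.98 on the log2 scale, were in Frem2, Klhl14, the semaphorin receptor gene Plxnd1, the leak potassium channel gene Kcnk9, Caln1, the proteoglycan gene Spock1, Ramp3, which escorts calcitonin-family receptors, and the axonal adhesion gene Cntn1. Frem2 encodes a basement membrane protein and was listed at 0.614, 0.605 and 0.697 TPM at 16 h and 4.25, 6.09 and 6.33 TPM at 48 h. With all its 16 h libraries under 1 TPM, it passed the filter through its 48 h level.

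Prl2c2 (chr13:12996125-13005383, minus strand), encoding the placental hormone proliferin and with near-identical copies that make its reads uncertain, was at 17.3, 19.7 and 28.1 TPM at 16 h and 0 in all 3 libraries at 48 h, so no fold is given. The DMSO libraries gave the same picture, with 21, 16.3 and 23.4 TPM at 16 h and 0 in all 3 libraries at 48 h. Spp1 (chr5:104435118-104441050, plus strand), encoding the secreted phosphoprotein osteopontin, fell from 44.6, 41 and 52.5 TPM to 0.317, 1.44 and 2.09 TPM (log2 change -4.44 ± 0.28, adjusted p = 4.1e-06). The neighbouring genes S100a6 and S100a4, small calcium-binding proteins of dividing and motile cells, fell by large amounts. S100a6 (chr3:90612882-90624181, plus strand) had 28.9, 32.3 and 39.1 TPM at 16 h and 0.215, 0.799 and 1.72 TPM at 48 h (log2 change -4.24 ± 0.30, adjusted p = 6.6e-06). S100a4 had 13.3, 18.1 and 20.6 TPM at 16 h and 0.245, 0 and 0 TPM at 48 h (log2 change -4.07 ± 0.28, adjusted p = 6.2e-06). Every 48 h library of both S100 genes was under 2 TPM and every 16 h library over 13 TPM. Ccl5, a chemokine gene of inflammation, had 67.7, 19.8 and 14.1 TPM at 16 h and 0.557, 2.22 and 3.13 TPM at 48 h (log2 change -3.34 ± 0.55, adjusted p = 0.0011). Ccl3, a chemokine gene of microglia and macrophages, had 86.1, 35.4 and 27.6 TPM at 16 h and 1.96, 6.63 and 8.45 TPM at 48 h (log2 change -2.91 ± 0.53, adjusted p = 0.002). Replicate 1 was the highest 16 h library and the lowest 48 h library for both chemokines. Beside these falls, the 11 tested of the 17 listed microglia and macrophage genes summed to 60.7 to 137 TPM at 16 h and 23.4 to 81.4 TPM at 48 h. The part of these cells in the result was not tested.

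**Figure D1:**
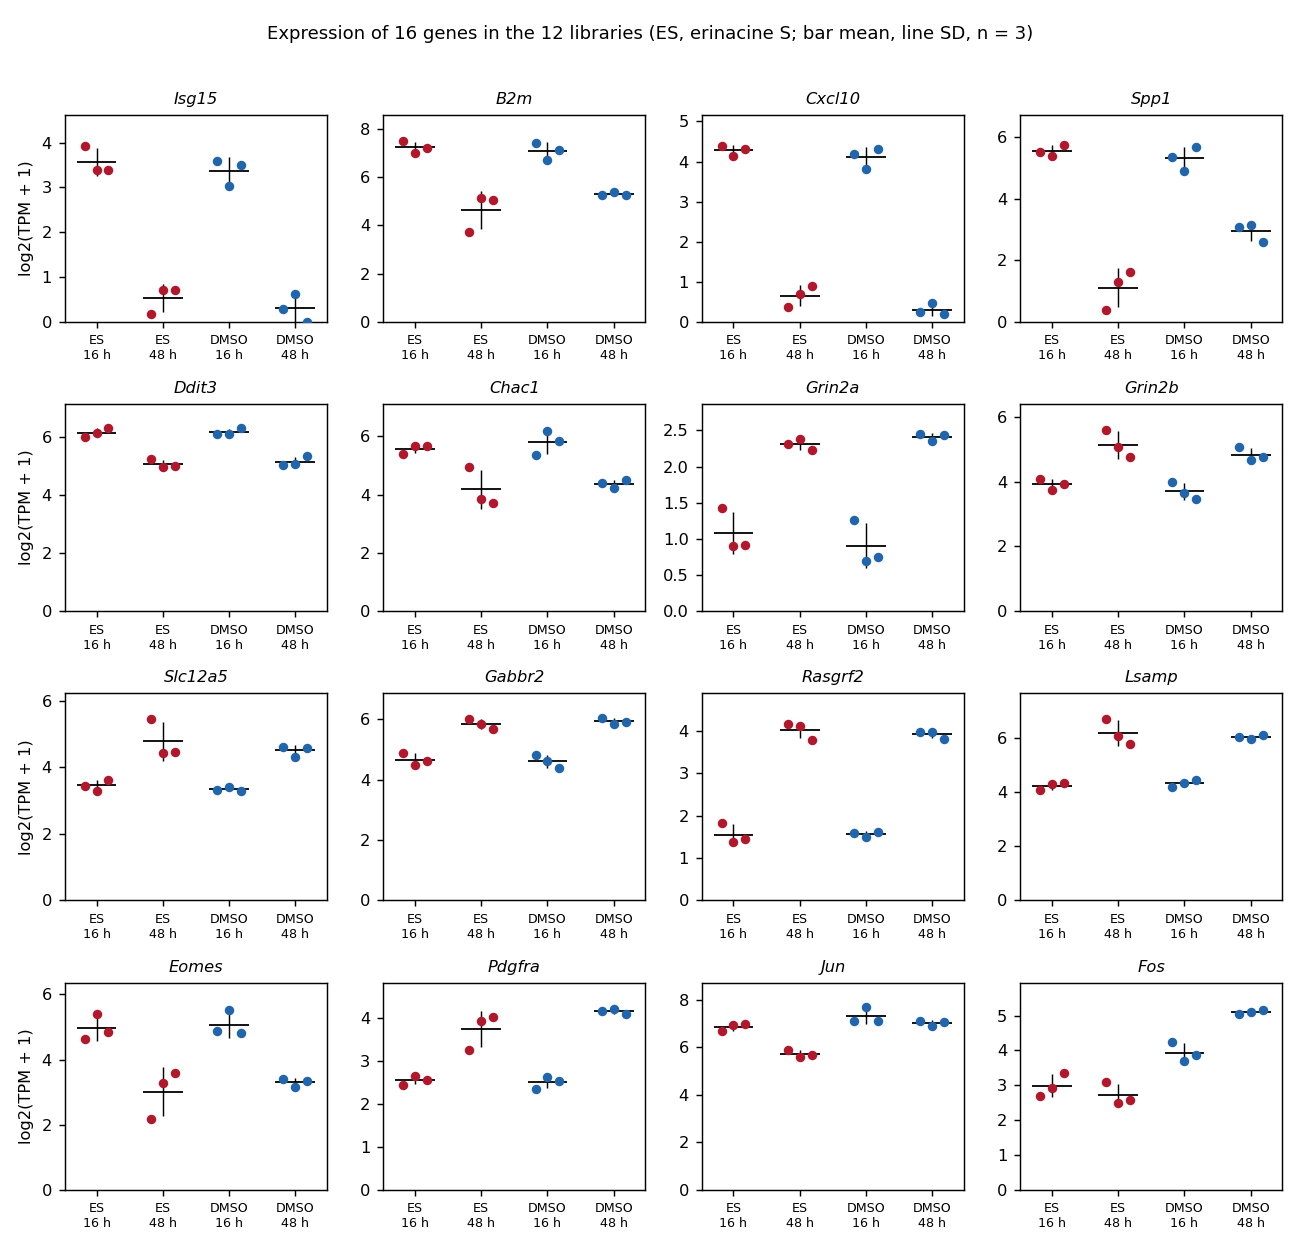
Level of 16 genes in each of the 12 libraries as log2(TPM + 1), by treatment and time. Points are libraries, the horizontal bar is the group mean and the vertical line its SD (n = 3). The ES libraries at 48 h lay below those at 16 h for Isg15, B2m, Cxcl10, Spp1, Ddit3, Chac1, Eomes and Jun and above them for Grin2a, Grin2b, Slc12a5, Gabbr2, Rasgrf2, Lsamp and Pdgfra, while for Fos they overlapped and the DMSO libraries rose. B2m and Chac1 were drawn after their values were seen.

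Interferon response genes, which cells switch on through STAT and IRF factors when they sense virus or interferon, fell together. Several carry in their promoters letters of the kind these factors bind, given here as a match of letters and not as a site. For 4 of the genes with the largest falls, Cxcl10 among them although it is not on the interferon list and enters none of its counts, the stretch before the annotated start (RefSeq, GRCm38.p6, written in the direction of the gene) is shown with matches to GAAANNGAA on either strand in capitals. The Isg15 stretch is chr4:156200851-156200921 (minus strand), the Cxcl10 stretch chr5:92349068-92349127 (minus), the Rsad2 stretch chr12:26456537-26456596 (minus) and the Bst2 stretch chr8:71537563-71537627 (minus).
Isg15: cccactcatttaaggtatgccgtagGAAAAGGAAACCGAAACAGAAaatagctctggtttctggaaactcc
Cxcl10: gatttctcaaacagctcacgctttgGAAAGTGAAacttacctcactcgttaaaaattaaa
Rsad2: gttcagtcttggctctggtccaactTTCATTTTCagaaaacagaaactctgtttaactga
Bst2: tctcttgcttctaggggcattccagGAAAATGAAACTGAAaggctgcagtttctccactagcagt
In Isg15 and Bst2 overlapping matches form a run, 66 to 78 and 124 to 130 bases before the start, while Cxcl10 and Rsad2 have a single match 213 and 119 bases before it. Over the promoter windows of the interferon list (250 bases before to 50 after the start) 46.43% held a match, against 8.56% of all 32851 windows. This motif was chosen after the data were seen.

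Isg15 (chr4:156199424-156200818, minus strand), a ubiquitin-like protein induced by interferon, had 14.3, 9.39 and 9.42 TPM at 16 h and 0.122, 0.631 and 0.641 TPM at 48 h (log2 change -3.03 ± 0.23, adjusted p = 9.7e-06). Cxcl10, a chemokine induced by interferon, fell from 19.96, 16.7 and 18.8 TPM to 0.292, 0.623 and 0.851 TPM (log2 change -3.63 ± 0.17, adjusted p = 2.9e-07). Rsad2, the antiviral enzyme viperin, was at 6.81, 7.13 and 8.39 TPM at 16 h and 0 in all 3 libraries at 48 h. All 48 h libraries were under 1 TPM for these 3 genes, and none of the 16 h libraries was under 6. Bst2, the membrane tether that holds budding virus, had 18.3, 17.3 and 19.5 TPM at 16 h and 0.183, 1.9 and 0.932 TPM at 48 h (log2 change -3.37 ± 0.30, adjusted p = 2.7e-05). The membrane protein gene Ifitm3 had 14.3, 16.9 and 22 TPM at 16 h and 0.207, 1.1 and 1.97 TPM at 48 h (log2 change -3.24 ± 0.29, adjusted p = 2.5e-05). The oligoadenylate synthase relative Oasl2 and the GTPase Gbp2 fell too, with log2 changes of -2.60 and -2.82, and both stood at 6 TPM or more in all 16 h libraries and under 0.5 TPM in all 48 h ones. B2m, the light chain of MHC class I molecules, named after its values were seen, had 179, 129 and 149 TPM at 16 h and 12.3, 34 and 32.6 TPM at 48 h (log2 change -2.60 ± 0.31, adjusted p = 0.00016). Ifitm2 and Ifit3 changed by -1.54 and -2.26. Of the 29 listed genes 26 passed the filter and 24 of these were called lower, but 14 of the 26 averaged under 1 TPM at 48 h and so passed through their 16 h level alone. Among the 12 genes with at least 1 TPM at both times 10 were called lower, with a median of -1.17, beside -0.025 over all genes tested. Mx1, Mx2 and Ifih1 did not pass the filter. The interferon factor gene Stat2, named after its values were seen, had 57, 47.2 and 43.6 TPM at 16 h and 59.3, 48.7 and 44.5 TPM at 48 h (log2 change 0.043 ± 0.12, adjusted p = 0.82). In the DMSO libraries 23 of the 26 were called lower, with a median of -1.49 beside -1.87 with ES, and there 1 of 11 microglia genes was called lower. The listed microglia and endothelial genes moved with these falls in ES: 4 of 11 microglia genes and 1 of 2 endothelial genes, Ly6a, were called lower. The 2 tested of the 14 listed endothelial and mural genes summed to 3.56 to 6.62 TPM at 16 h and 0.955 to 1.18 TPM at 48 h. Ly6a and 2 of the 11 microglia genes averaged under 1 TPM at 48 h and so passed the filter through their 16 h level. Among the listed genes that did not pass, Cldn5 was at 0 in replicates 2 and 3 and Ly6c1 in all 3 libraries of 48 h. The part of these cells in the result was not tested.

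The integrated stress response, in which blocked translation initiation raises the factor ATF4 and its amino acid genes, was lower at 48 h. Of 33 listed genes 22 were called lower and 0 higher, with a median change of -0.68. Taken by 48 h library, the median difference from the 16 h mean was -0.30, -0.67 and -0.67 for replicates 1, 2 and 3. Ddit3, the stress factor CHOP, had 62.3, 69.8 and 77.6 TPM at 16 h and 36.8, 29.98 and 31.1 TPM at 48 h (log2 change -1.08 ± 0.11, adjusted p = 7.1e-05). Shmt2, the mitochondrial serine hydroxymethyltransferase, had 143, 158 and 141 TPM at 16 h and 89.1, 82.1 and 78.1 TPM at 48 h (log2 change -0.82 ± 0.09, adjusted p = 0.0001). All 48 h libraries of both genes lay far below all 16 h ones, and in both replicate 1 was the highest at 48 h. Ppp1r15a, which brings a phosphatase to the initiation factor, fell from 49.99, 45.9 and 52.1 TPM to 28.5, 25.7 and 26.4 TPM, and the partner factor Cebpg from 42.7, 52.6 and 51.8 TPM to 27.9, 25 and 27.1 TPM. Psph, the last enzyme of serine synthesis, changed by -0.84. In DMSO 23 of the 33 were called lower and 0 higher, with a median of -0.62. The composite element TTGCATCA, which ATF4 binds with a C/EBP partner, was in 16.67% of the promoter windows of these genes and in 0.895% of all windows. It was found in Aars, Chac1, Iars, Nupr1 and Slc7a11, named here for the match after their values were seen, and the stretches of 3 of them are shown with the matches in capitals. They are chr2:119351024-119351083 (plus strand), chr3:50443628-50443704 (minus) and chr7:126625546-126625605 (minus) in RefSeq, GRCm38.p6.
Chac1: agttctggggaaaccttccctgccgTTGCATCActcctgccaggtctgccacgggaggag
Slc7a11: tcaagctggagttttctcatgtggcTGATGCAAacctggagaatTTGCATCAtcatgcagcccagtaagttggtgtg
Nupr1: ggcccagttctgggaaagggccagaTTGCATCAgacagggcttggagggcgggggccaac
Slc7a11, the cystine transporter, has the element on both strands. Chac1, which degrades glutathione, had 41, 50.2 and 49.5 TPM at 16 h and 30.2, 13.5 and 12.2 TPM at 48 h (log2 change -1.40 ± 0.28, adjusted p = 0.0035). The stress-induced chromatin protein gene Nupr1 had 14.7, 11 and 9.56 TPM at 16 h and 1.29, 2.85 and 4.14 TPM at 48 h (log2 change -1.82 ± 0.25, adjusted p = 0.00036). Slc7a11 stood at 5.38, 2.92 and 2.69 TPM at 16 h and 1.33, 2.14 and 2.05 TPM at 48 h (log2 change -0.68 ± 0.24, adjusted p = 0.049). It lost its call without any 1 library other than ES 16 h replicate 3 and DMSO 16 h replicates 1 and 3 and stood at -0.44 without ES 16 h replicate 1.

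**Figure D2:**
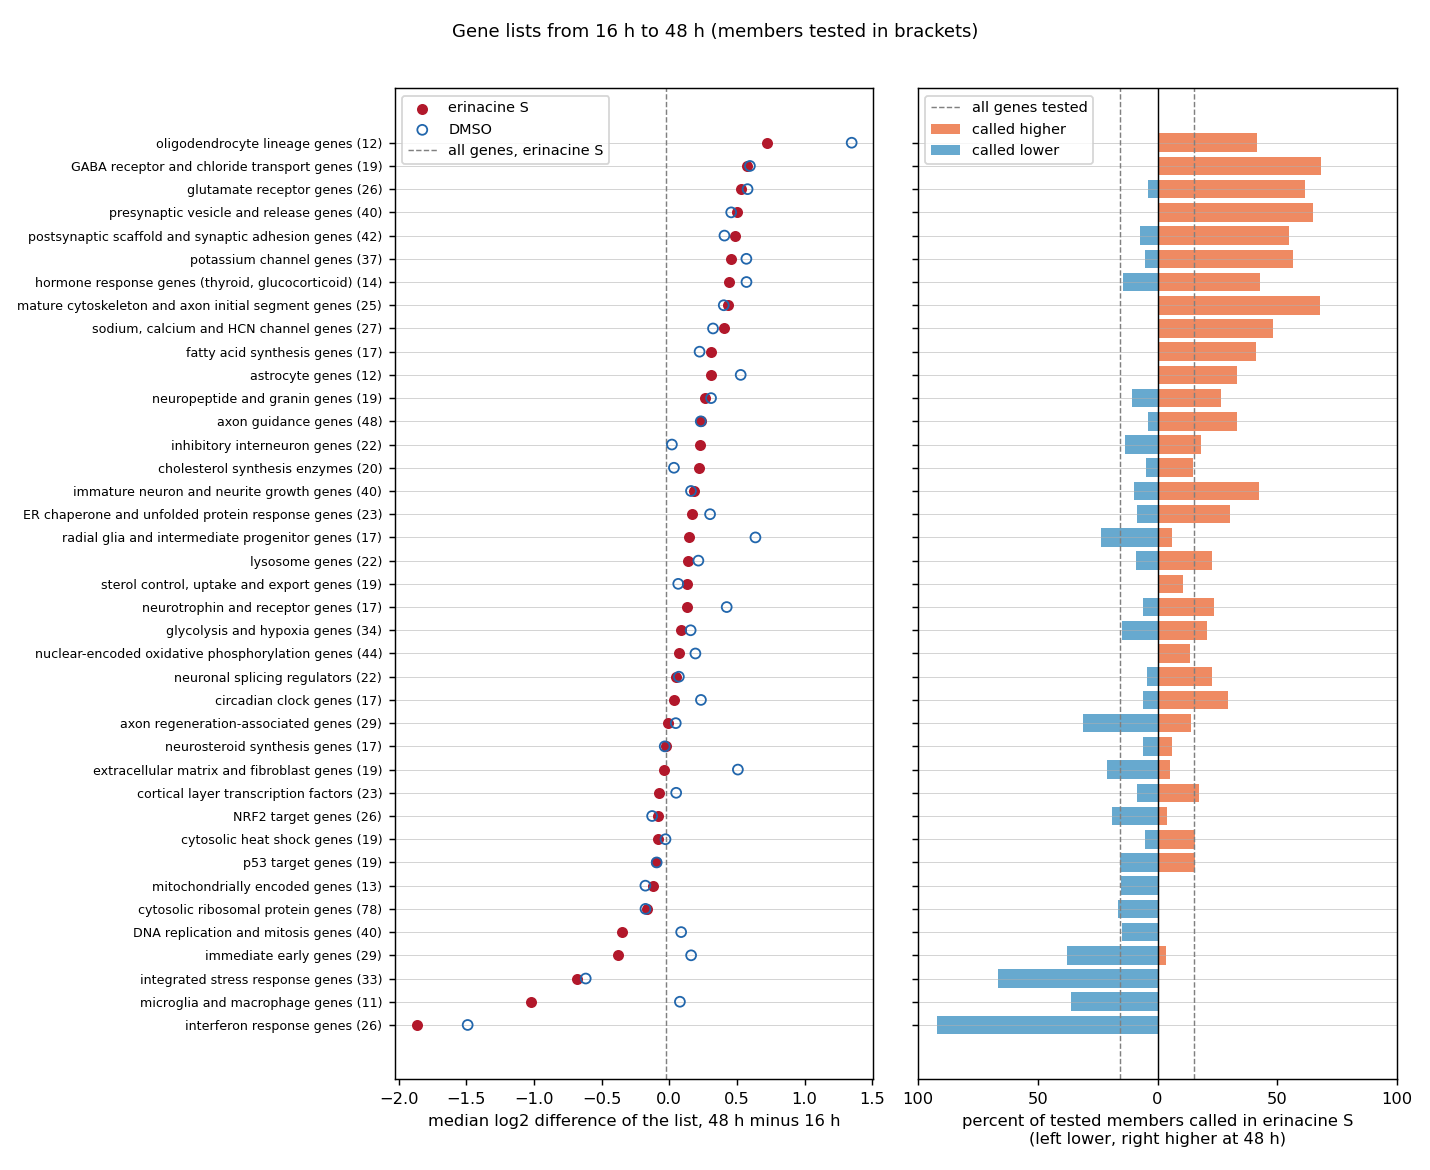
Median log2 difference from 16 h to 48 h of each gene list with ES (filled) and DMSO (open) on the left, and the percent of tested members called lower and higher with ES on the right. Dashed lines mark all genes tested. Lists with at least 10 tested members are drawn, and of these the interferon, microglia and integrated stress response lists lay lowest with ES, and the synaptic, receptor and channel lists lay to the right of all genes with both treatments.

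Genes of the presynaptic terminal rose as a group: 26 of 40 were called higher and 0 lower, with a median of 0.50. Dnm1, the dynamin that pinches vesicles from the membrane, had 56.6, 43.9 and 46.7 TPM at 16 h and 128, 87.8 and 96.6 TPM at 48 h (log2 change 1.06 ± 0.14, adjusted p = 0.00026). The SNARE protein gene Stx1a had 88.2, 80.9 and 80.5 TPM at 16 h and 124, 112 and 109.8 TPM at 48 h (log2 change 0.47 ± 0.06, adjusted p = 0.00038). The vesicle glycoprotein gene Sv2a had 76.2, 72.8 and 75.2 TPM at 16 h and 152, 106 and 106 TPM at 48 h (log2 change 0.67 ± 0.11, adjusted p = 0.0013). No 48 h library overlapped the 16 h ones for these, and replicate 1 was the highest at 48 h for all 3. Syt4, a calcium sensor of dense-core and growing membranes, rose by 0.63 and the vesicle protein gene Syngr3 by 0.77. Rab3c, a GTPase of synaptic vesicles, changed by 0.58 and stood at 0.37 without ES 48 h replicate 1. The vesicular glutamate transporter genes were not called: Slc17a6 had 26.6, 40.9 and 34.5 TPM at 16 h and 28.6, 26.7 and 26.1 TPM at 48 h (log2 change -0.29 ± 0.14, adjusted p = 0.13). Slc17a7 had 10.7, 7.44 and 8.59 TPM at 16 h and 11.6, 7.99 and 6.7 TPM at 48 h (log2 change -0.041 ± 0.18, adjusted p = 0.88). In each 48 h library separately, the median difference of the 40 genes from the 16 h mean was 0.81, 0.40 and 0.33 for replicates 1, 2 and 3. The replicate with the lowest replication and radial glia sums thus had the largest value, and the part of those cells in the result was not tested. Leaving out both replicates 1 gave 22 higher and 1 lower with a median of 0.39, and the list gave 1 lower without ES 16 h replicate 1.

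On the postsynaptic side 23 of 42 scaffold and adhesion genes were called higher and 3 lower, with a median of 0.48, or 0.32 without ES 48 h replicate 1. Camk2b, the calcium-dependent kinase expressed early in neurons, had 316, 236 and 268 TPM at 16 h and 497, 531 and 415 TPM at 48 h (log2 change 0.82 ± 0.12, adjusted p = 0.00045). The scaffold genes Dlgap1, Cnksr2 and Shank1 rose by 0.90, 0.71 and 0.65. Shank1 links receptors to actin and was at 71.0 to 87.8 TPM at 16 h and 113 to 135 TPM at 48 h, with no overlap. Lrrtm1, an adhesion protein that recruits presynaptic terminals, rose by 0.73. The scaffold genes Dlg1 and Homer3 fell, with log2 changes of -0.50 and -0.51, and Homer3 was not called without both replicates 1 of ES. Dlg1 had 32.9, 44 and 38.1 TPM at 16 h and 25.6, 27.5 and 27 TPM at 48 h, all 48 h libraries below all 16 h ones.

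The glutamate receptor genes followed the synaptic genes, with 16 of 26 called higher and 1 lower and a median of 0.53, or 0.32 without ES 48 h replicate 1. Grin2a, the NMDA receptor subunit of mature synapses, had 1.68, 0.863 and 0.894 TPM at 16 h and 3.96, 4.23 and 3.7 TPM at 48 h (log2 change 1.23 ± 0.18, adjusted p = 0.00054). Grin2b, the NMDA receptor subunit present from the embryo on, had 16.2, 12.5 and 14.3 TPM at 16 h and 48.1, 32.8 and 26.2 TPM at 48 h (log2 change 1.22 ± 0.20, adjusted p = 0.0012). Grin2b stayed far above Grin2a in TPM in every library, and both rose. Grm2, a metabotropic receptor that damps release, had 4.22, 3.78 and 3.53 TPM at 16 h and 7.95, 9.19 and 7.68 TPM at 48 h (log2 change 0.94 ± 0.12, adjusted p = 0.00029). The kainate receptor subunit Grik4 rose by 0.83 and the AMPA receptor auxiliary protein gene Cacng8 by 0.90. Among the AMPA receptor subunits Gria1 had 90.1, 72.3 and 81.5 TPM at 16 h and 199, 103 and 102 TPM at 48 h (log2 change 0.65 ± 0.22, adjusted p = 0.039). It lost its call without DMSO 48 h replicate 1, ES 16 h replicates 2 or 3 or ES 48 h replicate 1 and stood at 0.33 without ES 48 h replicate 1. Gria2, whose edited product keeps calcium out, had 263, 392 and 352 TPM at 16 h and 247, 268 and 246 TPM at 48 h (log2 change -0.38 ± 0.12, adjusted p = 0.032). It lost its call without ES 16 h replicates 2 or 3 or ES 48 h replicates 1 or 3. The list gave 0 lower without ES 16 h replicates 2 or 3 or ES 48 h replicates 1 or 3.

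Genes of GABA receptors and chloride transport had 13 of 19 called higher and 0 lower, with a median of 0.58. The chloride exporter KCC2, encoded by Slc12a5, rose from 9.92, 8.86 and 11.3 TPM to 42.9, 20.7 and 21 TPM (log2 change 1.32 ± 0.22, adjusted p = 0.0012). Its counterpart Slc12a2, the importer NKCC1, had 18.5, 20.9 and 18.2 TPM at 16 h and 18.5, 19.9 and 17.6 TPM at 48 h (log2 change -0.034 ± 0.09, adjusted p = 0.82). At 16 h the importer was the higher of the pair in every library, at 48 h the exporter was. The GABA-B receptor subunit gene Gabbr2 had 28.7, 21.5 and 23.3 TPM at 16 h and 63, 55.7 and 50.2 TPM at 48 h (log2 change 1.17 ± 0.13, adjusted p = 0.0001). Its abundant partner Gabbr1 rose by 0.41. Gabrd, a subunit of receptors outside synapses that neurosteroids act on strongly, had 0.284, 0.299 and 0.359 TPM at 16 h and 1.91, 2.38 and 2.31 TPM at 48 h (log2 change 1.28 ± 0.17, adjusted p = 0.00028). It passed the filter through its 48 h level, since its 16 h libraries were all under 1 TPM. Gabra4 and the glycine receptor subunit Glrb rose by 0.61 and 0.82, and the alpha subunit gene Gabra2 stood at 0.067 (adjusted p = 0.78).

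Voltage-gated sodium, calcium and HCN channel genes had 13 of 27 tested called higher and 0 lower, with a median of 0.41, or 0.26 without ES 48 h replicate 1. Cacna1i, a T-type calcium channel that opens near rest, had 2.22, 2.01 and 2.55 TPM at 16 h and 12.6, 8.81 and 8.12 TPM at 48 h (log2 change 1.72 ± 0.15, adjusted p = 2.3e-05). Hcn2, a pacemaker channel opened by hyperpolarisation, had 20.8, 14 and 12.4 TPM at 16 h and 47.7, 37.3 and 42.1 TPM at 48 h (log2 change 1.40 ± 0.20, adjusted p = 0.00047). All 48 h libraries lay above all 16 h ones for both genes. The related T-type channel Cacna1g, the sodium channel Scn2a and its auxiliary subunit Scn2b rose by 0.98, 0.93 and 0.59. The list gave 6 higher without ES 16 h replicate 2 or ES 48 h replicate 1 and 7 higher without ES 16 h replicate 3.

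Among 37 potassium channel genes 21 were called higher and 2 lower, with a median of 0.45. Kcnip4, which sets the gating of A-type channels, had 2.63, 2.19 and 2.9 TPM at 16 h and 7.95, 7.85 and 8.0 TPM at 48 h (log2 change 1.33 ± 0.12, adjusted p = 2.8e-05), the 48 h libraries nearly equal. Kcnd2, the pore of that channel, had 15.8, 15.7 and 16.3 TPM at 16 h and 38, 29 and 29.5 TPM at 48 h (log2 change 0.96 ± 0.10, adjusted p = 1.0e-04). Its partner Kcnip2 rose by 1.20. These parts of the A-type channel thus rose together. Kcnk9, a leak channel, had 1.51, 1.88 and 2.56 TPM at 16 h and 6.04, 13.8 and 9.43 TPM at 48 h (log2 change 1.80 ± 0.24, adjusted p = 0.00029). Kcnq5, of the M-current, rose by 0.83. The calcium-activated channel Kcnn2 fell from 16.5, 16.5 and 15.3 TPM to 11.8, 8.84 and 9.74 TPM (log2 change -0.63 ± 0.11, adjusted p = 0.0014). The list gave 1 lower without ES 16 h replicates 2 or 3 or ES 48 h replicates 2 or 3 and 4 lower without ES 48 h replicate 1.

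Genes of the mature cytoskeleton and axon initial segment rose: of 25 tested 17 were called higher and 0 lower, with a median of 0.43. Mapt, the axonal protein tau, had 734, 634 and 675 TPM at 16 h and 1285, 1090.1 and 1031 TPM at 48 h (log2 change 0.73 ± 0.09, adjusted p = 0.00021). Map1a had 17.4, 12.4 and 13.6 TPM at 16 h and 37.8, 29.7 and 24.5 TPM at 48 h (log2 change 1.03 ± 0.16, adjusted p = 0.00093). The spectrin genes Sptbn4, of the initial segment, and Sptbn1 rose by 1.16 and 0.67. Cntn1 had 22, 19.7 and 25 TPM at 16 h and 106, 67.2 and 60.1 TPM at 48 h, the 48 h libraries all above the 16 h ones. The abundant tubulin genes Tuba1b and Tubb2a were called higher whichever single library was left out. Tuba1b had 2155, 1881 and 1827 TPM at 16 h and 2754, 2561 and 2654 TPM at 48 h. Tubb2a had 1898, 1369.7 and 1222 TPM at 16 h and 2482, 2262 and 2277 TPM at 48 h. Tubb2a shares sequence with Tubb2b, so its reads are uncertain. The 40 genes of immature neurons and neurite growth had 17 called higher and 4 lower, with a median of 0.18. The collapsin response protein gene Dpysl2 rose by 0.71, Map1b by 0.74, the growth cone protein gene Gap43 by 0.54, Stmn2 by 0.62, Dclk1 by 0.58 and the adhesion gene Ncam1 by 0.67. Gap43 had 714, 549.8 and 635 TPM at 16 h and 1026, 884 and 853 TPM at 48 h. Ncam1 had 355, 288 and 292 TPM at 16 h and 517, 519 and 451 TPM at 48 h. Genes of this list that fell included the commissural guidance factor Draxin (-0.49) and the early neuronal factors Neurod6 and Neurod1. Neurod6 had 810.5, 831 and 852 TPM at 16 h and 472, 596 and 566 TPM at 48 h (log2 change -0.62 ± 0.09, adjusted p = 0.00064). Neurod1 had 88.7, 96.9 and 81.8 TPM at 16 h and 65.7, 57.3 and 58.2 TPM at 48 h (log2 change -0.55 ± 0.12, adjusted p = 0.0055). The list gave 9 higher without ES 16 h replicate 2 and 11 higher without ES 48 h replicate 2. The migration marker Dcx had 446, 540.1 and 522 TPM at 16 h and 727, 610.3 and 543 TPM at 48 h (log2 change 0.31 ± 0.11, adjusted p = 0.049). It lost its call without any 1 library other than ES 48 h replicate 3 and DMSO 16 h replicates 2 and 3 and stood at 0.20 without ES 48 h replicate 1. The nuclear marker of mature neurons Rbfox3 changed by 0.29 and lost its call without ES 16 h replicates 2 or 3 or ES 48 h replicates 1 or 2.

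Axon guidance genes had 16 of 48 called higher (33.3%, beside 15.1% of all genes) and 2 lower (4.2%, beside 15.6%). Their median was 0.23, or 0.15 without ES 48 h replicate 1. Plxnd1, the receptor for a class 3 semaphorin, had 34.9, 21.5 and 22.8 TPM at 16 h and 118, 83.6 and 80.3 TPM at 48 h (log2 change 1.81 ± 0.18, adjusted p = 6.9e-05). The ephrin Efna3 had 31.3, 27.5 and 28.5 TPM at 16 h and 50.2, 46.3 and 43.2 TPM at 48 h (log2 change 0.66 ± 0.07, adjusted p = 0.0001). The ephrin receptor gene Epha7 had 15.9, 15.6 and 16.3 TPM at 16 h and 33.1, 29.3 and 27.2 TPM at 48 h (log2 change 0.86 ± 0.08, adjusted p = 5.0e-05). The transmembrane semaphorins Sema6b and Sema4f rose by 0.89 and 0.63. Nrp1, the co-receptor for class 3 semaphorins and VEGF, fell from 113, 88.9 and 85.9 TPM to 59.6, 64.4 and 64.6 TPM (log2 change -0.59 ± 0.13, adjusted p = 0.0046). All 3 ES libraries at 48 h lay below those at 16 h for Nrp1 and above them for the 5 rising genes named. The list gave 1 lower without ES 16 h replicates 2 or 3 or ES 48 h replicates 2 or 3 and 4 lower without DMSO 16 h replicate 2.

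Of 23 cortical layer transcription factors 4 were called higher (17.4%, beside 15.1% of all genes) and 2 lower (8.7%, beside 15.6%). Fezf2, which specifies subcerebral projection neurons, had 64.4, 41.6 and 45 TPM at 16 h and 26.2, 20.7 and 18 TPM at 48 h (log2 change -1.17 ± 0.20, adjusted p = 0.0014). Mef2c, a factor of maturing cortical neurons, rose from 175, 151 and 166 TPM to 361, 300.3 and 239 TPM (log2 change 0.85 ± 0.13, adjusted p = 0.00087). The upper layer factor Cux1 rose by 0.48. The 48 h replicates of Mef2c ranged widely but did not overlap the 16 h ones. The list gave 2 higher without ES 16 h replicate 2 or ES 48 h replicate 2 and 4 lower without ES 48 h replicate 1.

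Genes of inhibitory interneurons had 4 of 22 called higher (18.2%, beside 15.1% of all genes) and 3 lower (13.6%, beside 15.6%). The fate factor Dlx2, which is expressed in precursors, had 131, 168 and 143 TPM at 16 h and 79.4, 80.4 and 86.3 TPM at 48 h (log2 change -0.83 ± 0.15, adjusted p = 0.002). Reln, a secreted guidance protein of Cajal-Retzius cells and interneurons, had 11.7, 9.94 and 13.3 TPM at 16 h and 56.3, 22.1 and 19.1 TPM at 48 h (log2 change 1.25 ± 0.31, adjusted p = 0.011). It stood at 0.77 without ES 48 h replicate 1. The 22 tested interneuron genes summed to 2502 TPM in ES 48 h replicate 1 against 1239 and 1243 TPM in its replicates and 1265 to 1595 TPM at 16 h. The list gave 1 higher without ES 16 h replicate 1, 2 higher without ES 16 h replicates 2 or 3 or ES 48 h replicates 1 or 2, 1 lower without ES 16 h replicate 2, and 6 lower without ES 48 h replicate 1. Among neuropeptide and granin genes 5 of 19 were called higher (26.3%, beside 15.1% of all genes) and 2 lower (10.5%, beside 15.6%). The processing enzymes Cpe and Pcsk2 rose by 0.52 and 0.90. The granin gene Chga, which packs secretory granules, had 110.0, 103 and 112 TPM at 16 h and 134, 166 and 160.2 TPM at 48 h (log2 change 0.49 ± 0.09, adjusted p = 0.0017). Neuropeptide genes gave 3 higher without ES 16 h replicate 1, 0 lower without any 1 library other than ES 48 h replicate 1, DMSO 16 h replicates 1, 2 and 3 and DMSO 48 h replicate 3, and 1 lower without DMSO 16 h replicates 1 or 3 or DMSO 48 h replicate 3.

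**Figure D3:**
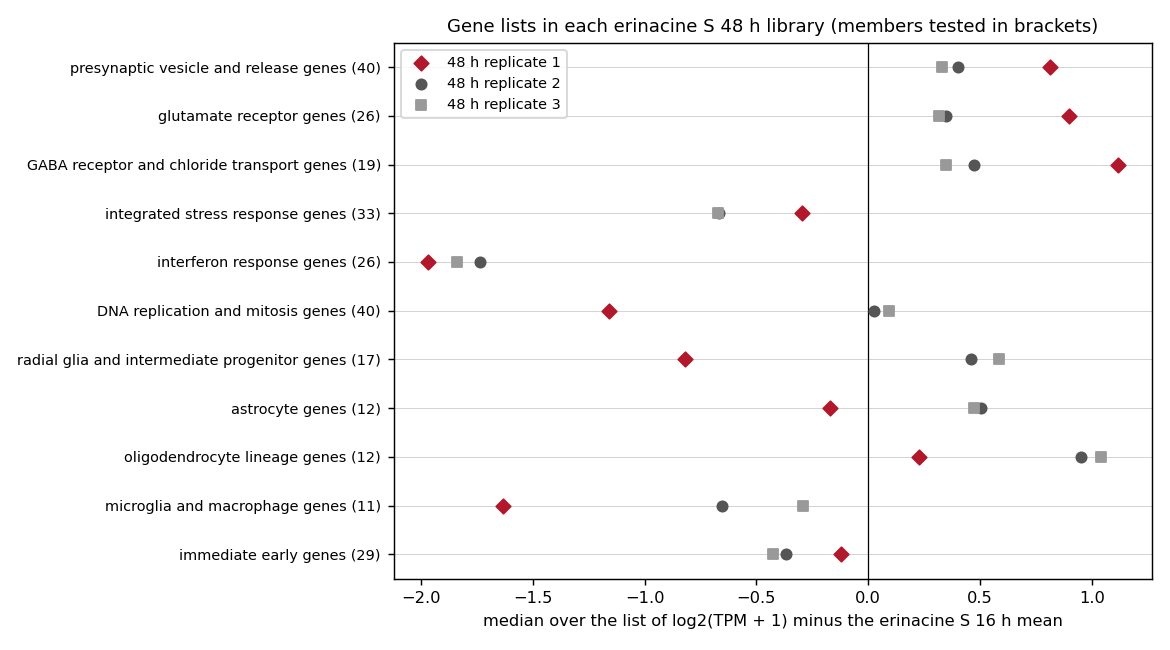
Median over each list of log2(TPM + 1) minus the mean of the 3 ES 16 h libraries, for each ES 48 h library. Replicate 1 (diamonds) lay to the left of replicates 2 and 3 for the replication, radial glia, astrocyte, oligodendrocyte and microglia lists. It lay to their right for the synaptic, receptor, integrated stress response and immediate early lists. The 3 libraries lay close together for the interferon genes.

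Factors of neuronal progenitors fell, while the values of glial genes differed between the 48 h libraries. Eomes, the factor of intermediate progenitors, had 23.7, 41.1 and 27.8 TPM at 16 h and 3.49, 8.72 and 11 TPM at 48 h (log2 change -1.95 ± 0.32, adjusted p = 0.0011). The proneural factor Neurog2 had 26.4, 39.2 and 26.7 TPM at 16 h and 9.31, 16.1 and 17.8 TPM at 48 h (log2 change -1.07 ± 0.26, adjusted p = 0.0087). Both fell also in replicates 2 and 3 of 48 h, all of which lay below every 16 h library. Ddah1 went the other way (0.56). Of 17 tested radial glia and progenitor genes 1 was called higher (5.9%, beside 15.1% of all genes) and 4 lower (23.5%, beside 15.6%). That list gave 9 higher without ES 48 h replicate 1 and 2 lower without ES 16 h replicate 2 or ES 48 h replicate 1. The median of that list was -0.82 in replicate 1 and 0.46 and 0.58 in replicates 2 and 3. Fabp7, the fatty acid binding protein of radial glia, had 138, 142 and 109.7 TPM at 16 h and 72.6, 465 and 494 TPM at 48 h (log2 change 0.98 ± 0.53, adjusted p = 0.18). Its 48 h libraries lay on both sides of the 16 h ones. DNA replication and mitosis genes had 0 of 40 called higher and 6 lower (15.0%, beside 15.6% of all genes). Mcm7, of the replicative helicase, had 147, 168 and 168 TPM at 16 h and 68.2, 91 and 96.3 TPM at 48 h (log2 change -0.92 ± 0.11, adjusted p = 0.00016). The chromatin protein gene Hmgb2 had 92.1, 95.1 and 91.9 TPM at 16 h and 35, 58.6 and 63.9 TPM at 48 h (log2 change -0.86 ± 0.16, adjusted p = 0.0027). Those 2 kept their calls without any single library, and the list gave 3 higher without ES 48 h replicate 1, 2 lower without ES 16 h replicates 1 or 2, 3 lower without ES 16 h replicate 3, and 10 lower without ES 48 h replicate 2.

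Astrocyte genes had 4 of 12 called higher and 0 lower. Sparcl1, a secreted promoter of synapse formation, had 69.9, 57.1 and 61 TPM at 16 h and 90.4, 107 and 103 TPM at 48 h (log2 change 0.67 ± 0.09, adjusted p = 0.00026). The sodium pump subunit gene Atp1b2 had 47.7, 54 and 55 TPM at 16 h and 77.5, 76.4 and 74.7 TPM at 48 h (log2 change 0.54 ± 0.06, adjusted p = 0.00015). The glial intermediate filament gene Gfap had 2.35, 1.78 and 1.2 TPM at 16 h and 0.923, 1.76 and 2.75 TPM at 48 h (log2 change -0.013 ± 0.28, adjusted p = 0.98). The list gave 2 higher without ES 16 h replicates 2 or 3 or ES 48 h replicates 2 or 3 and 8 higher without ES 48 h replicate 1. Oligodendrocyte lineage genes had 5 of 12 called higher and 0 lower. Pdgfra, the growth factor receptor of oligodendrocyte precursors, had 4.45, 5.28 and 4.89 TPM at 16 h and 8.56, 14.3 and 15.3 TPM at 48 h (log2 change 1.19 ± 0.17, adjusted p = 0.00052). Lhfpl3 and the proteoglycan Cspg4 of the same cells rose by 1.11 and 0.84. These 3 genes of precursors were higher in every 48 h library, replicate 1 included, while Olig1 was at 42.4, 37.1 and 23.1 TPM at 16 h and 20.5, 91.5 and 99.3 TPM at 48 h (log2 change 0.78 ± 0.49, adjusted p = 0.25). The list gave 3 higher without ES 16 h replicate 1 or ES 48 h replicates 2 or 3 and 8 higher without ES 48 h replicate 1. In DMSO 11 of the 12 were called higher with a median of 1.35, beside 0.72 with ES, which was 0.43 without ES 48 h replicate 2 and 0.39 without ES 48 h replicate 3.

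Microglia genes gave 0 of 11 called higher and 4 lower (36.4%, beside 15.6% of all genes). The genes called were the complement genes C1qa, C1qb and C1qc and the protease gene Ctss. Of the 11, 2 averaged under 1 TPM at 48 h and so passed the filter through their 16 h level. Among the 9 with at least 1 TPM at both times 2 were called lower, with a median of -0.66. Ctss had 13.6, 9.07 and 9.27 TPM at 16 h and 0.38, 1.7 and 2.28 TPM at 48 h (log2 change -2.32 ± 0.31, adjusted p = 0.00036). C1qb had 5.92, 5.39 and 5.13 TPM at 16 h and 0.278, 1.34 and 1.45 TPM at 48 h (log2 change -1.74 ± 0.24, adjusted p = 0.00044). C1qa had 5.21, 4.1 and 3.75 TPM at 16 h and 0, 1.16 and 1.56 TPM at 48 h (log2 change -1.59 ± 0.29, adjusted p = 0.002). All 48 h libraries were below all 16 h ones for these genes, and replicate 1 was the lowest. The lysozyme gene Lyz2 had 23.6, 6.4 and 6.24 TPM at 16 h and 3.41, 27.5 and 32.9 TPM at 48 h (log2 change 0.56 ± 0.77, adjusted p = 0.61), with 48 h libraries on both sides of the 16 h ones. In DMSO the list had 0 higher and 1 lower, with a median of 0.079 beside -1.02 with ES, which was -0.66 without ES 16 h replicate 1 and -0.51 without ES 48 h replicate 1 and -0.16 without both. Of matrix and fibroblast genes 1 of 19 was called higher (5.3%, beside 15.1% of all genes) and 4 lower (21.1%, beside 15.6%). The basement membrane collagen Col4a2 had 11.9, 10.2 and 10.6 TPM at 16 h and 21.1, 19.6 and 18.6 TPM at 48 h (log2 change 0.80 ± 0.10, adjusted p = 0.00021). The proteoglycan decorin, Dcn, had 2.47, 2.62 and 3.12 TPM at 16 h and 0.201, 0.205 and 0.0451 TPM at 48 h (log2 change -1.70 ± 0.16, adjusted p = 4.4e-05). The protease inhibitor gene Timp1 had 2.83, 2.13 and 3.29 TPM at 16 h and 0.125, 0.359 and 0.852 TPM at 48 h (log2 change -1.39 ± 0.23, adjusted p = 0.001). Like Tgfbi (-1.02) these genes averaged under 1 TPM at 48 h. The list gave 2 higher without DMSO 16 h replicate 2 or ES 16 h replicate 1 and 9 higher without ES 48 h replicate 1. Among erythroid genes Hbb-bs, whose reads can be shared with Hbb-bt, was called lower (log2 change -2.12 ± 0.59, adjusted p = 0.019). It lost its call without ES 16 h replicates 1 or 3 or ES 48 h replicate 3.

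Cholesterol synthesis supplies the neurosteroids that the title of the series names. Of its 20 listed enzymes 3 were called higher (15.0%, beside 15.1% of all genes) and 1 lower (5.0%, beside 15.6%). Their median was 0.22, and it was 0.33 without ES 16 h replicate 1 and 0.12 without ES 48 h replicate 1. Sc5d, a desaturase near the end of the pathway, had 93.5, 88.4 and 83.9 TPM at 16 h and 136, 115 and 111 TPM at 48 h (log2 change 0.44 ± 0.09, adjusted p = 0.0051). Hmgcs1, which makes the precursor of mevalonate, had 1207, 1115 and 1108 TPM at 16 h and 1700.4, 1301 and 1301 TPM at 48 h (log2 change 0.32 ± 0.11, adjusted p = 0.047). It lost its call without any 1 library other than ES 16 h replicate 1, ES 48 h replicates 2 and 3 and DMSO 16 h replicates 1 and 2 and stood at 0.19 without ES 48 h replicate 1. Pmvk rose by 0.41 and lost its call without ES 16 h replicate 2. Fdft1, which commits farnesyl units to sterols, had a log2 change of -0.32 and lost its call without ES 16 h replicate 1. The list gave 1 higher without ES 16 h replicate 2, 9 higher without ES 16 h replicate 1, and 0 lower without ES 16 h replicate 1. In DMSO 1 enzyme was called higher and 1 lower, with a median of 0.035. Cyp46a1, the neuronal hydroxylase that clears cholesterol from the brain, rose from 19.7, 14.3 and 15.3 TPM to 47.9, 37.7 and 33.7 TPM (log2 change 1.22 ± 0.13, adjusted p = 8.4e-05). With Scap it was 1 of 2 called higher among 19 tested sterol control and export genes (10.5%, beside 15.1% of all genes), with 0 lower. That list gave 1 higher without ES 16 h replicates 2 or 3 and 1 lower without ES 16 h replicate 3. Scap lost its call without ES 16 h replicates 2 or 3 or ES 48 h replicate 1.

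Of 28 neurosteroid synthesis genes 17 passed the filter, and 1 was called higher and 1 lower (5.9% each, beside 15.1% and 15.6% of all genes). The mitochondrial cholesterol carrier gene Tspo had 6.25, 4.28 and 4.58 TPM at 16 h and 1.28, 1.16 and 2.01 TPM at 48 h (log2 change -1.28 ± 0.20, adjusted p = 0.00073). Sult4a1, a brain sulfotransferase relative, had 104, 99.4 and 99.6 TPM at 16 h and 149, 121 and 126 TPM at 48 h (log2 change 0.38 ± 0.07, adjusted p = 0.0023). Srd5a1, named after its values were seen and encoding the reductase that starts the route from progesterone to allopregnanolone, had 17.2, 9.91 and 9.09 TPM at 16 h and 18, 16.1 and 17 TPM at 48 h (log2 change 0.51 ± 0.20, adjusted p = 0.077), with replicate 1 of 16 h inside the 48 h range. Cyp11a1, the enzyme that opens the pathway, was under 1 TPM in every ES library, and Cyp17a1, Hsd3b1 and Hsd3b6 were listed at 0 in all of them. The list gave 3 higher without ES 16 h replicate 1 and 2 lower without DMSO 16 h replicate 2 or ES 16 h replicate 1. Of 17 fatty acid synthesis genes 7 were called higher and 0 lower. The elongase Elovl4 had 43, 40.1 and 43 TPM at 16 h and 84.5, 67.3 and 67.7 TPM at 48 h (log2 change 0.78 ± 0.09, adjusted p = 0.0001). The malic enzyme gene Me1, which supplies NADPH, had 18.3, 18.1 and 19.1 TPM at 16 h and 27.4, 29.6 and 29.1 TPM at 48 h (log2 change 0.61 ± 0.07, adjusted p = 0.00016). The desaturase gene Scd2 had 788, 645 and 643 TPM at 16 h and 1047, 934 and 922 TPM at 48 h (log2 change 0.49 ± 0.10, adjusted p = 0.0036). Acsl4 and Elovl2, which handle long polyunsaturated fatty acids, rose by 0.83 and 0.27. The list gave 13 higher without ES 16 h replicate 1.

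Of 29 genes known from regenerating axons, the subject named in the title, 4 were called higher (13.8%, beside 15.1% of all genes) and 9 lower (31.0%, beside 15.6%). Jun, a factor induced by axon injury, fell from 101, 122 and 124 TPM to 58.5, 47.6 and 50.5 TPM (log2 change -1.14 ± 0.14, adjusted p = 0.00025). Atf3, another injury factor, had 4.63, 3.51 and 3.92 TPM at 16 h and 0.552, 0.707 and 0.971 TPM at 48 h (log2 change -1.53 ± 0.15, adjusted p = 4.4e-05). With all its 48 h libraries under 1 TPM, it passed the filter through its 16 h level. Lgals1, a galectin, changed by -1.82 and stood at -1.16 without ES 48 h replicate 1, and S100a10 and Gadd45a fell, with log2 changes of -0.72 and -0.62. The adhesion gene Chl1 rose by 0.62 and stood at 0.41 without ES 48 h replicate 1. Klf9, a hormone-induced factor that restrains axon growth, had 2.63, 4.57 and 4.86 TPM at 16 h and 5.94, 15.7 and 19.6 TPM at 48 h (log2 change 1.44 ± 0.33, adjusted p = 0.007). Its 48 h values were the lowest in replicate 1 and all lay above the 16 h ones. Among neurotrophins and their receptors 4 of 17 were called higher (23.5%, beside 15.1% of all genes) and 1 lower (5.9%, beside 15.6%). Ntrk2, the receptor for BDNF, had 41.7, 37.9 and 42.8 TPM at 16 h and 128, 87.9 and 83 TPM at 48 h (log2 change 1.24 ± 0.14, adjusted p = 0.0001). The cytokine receptor gene Lifr rose by 0.76. The growth factor gene Vegfa fell from 160.1, 182 and 169 TPM to 99.3, 89.9 and 88.2 TPM (log2 change -0.88 ± 0.09, adjusted p = 5.2e-05). Bdnf had 2.39, 2.07 and 2.61 TPM at 16 h and 2.54, 1.44 and 1.43 TPM at 48 h (log2 change -0.28 ± 0.21, adjusted p = 0.33). The list gave 2 higher without ES 16 h replicate 2. Hormone response genes had 6 of 14 called higher (42.9%, beside 15.1% of all genes) and 2 lower (14.3%, beside 15.6%). The thyroid hormone receptor gene Thrb had 3.81, 3.04 and 3.34 TPM at 16 h and 8.25, 5.2 and 6.26 TPM at 48 h (log2 change 0.77 ± 0.17, adjusted p = 0.0053). Dio3, which inactivates the hormone, had 7.04, 6.29 and 6.92 TPM at 16 h and 4.45, 2.59 and 3.25 TPM at 48 h (log2 change -0.83 ± 0.17, adjusted p = 0.0037). The mineralocorticoid receptor gene Nr3c2 and the kinase gene Sgk1 rose by 0.66 and 0.56, while Tsc22d3, a glucocorticoid target, fell, with a log2 change of -0.71. Of 17 clock genes 5 were called higher (29.4%, beside 15.1% of all genes) and 1 lower (5.9%, beside 15.6%). Bhlhe40, a repressor within the clock, had 19.1, 10.4 and 10.9 TPM at 16 h and 32, 31.3 and 31.6 TPM at 48 h (log2 change 1.23 ± 0.20, adjusted p = 0.0011). Arntl, the partner of CLOCK, had 15, 15 and 15.9 TPM at 16 h and 18.7, 23.3 and 22.5 TPM at 48 h (log2 change 0.46 ± 0.08, adjusted p = 0.002). The clock list gave 3 higher without ES 16 h replicate 1 or ES 48 h replicate 1, 0 lower without ES 16 h replicate 3 or ES 48 h replicate 2, and 2 lower without DMSO 16 h replicate 2.

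Of 78 cytosolic ribosomal protein genes 0 were called higher and 13 lower (16.7%, beside 15.6% of all genes), with a median of -0.16 that was -0.10 without ES 16 h replicate 3. Rpl27 had 558, 525 and 526 TPM at 16 h and 383, 386 and 403 TPM at 48 h (log2 change -0.46 ± 0.06, adjusted p = 0.00022). Rpl10a had 775, 747 and 800.2 TPM at 16 h and 570.1, 623 and 617 TPM at 48 h (log2 change -0.36 ± 0.06, adjusted p = 0.0014). These genes have many processed copies that can share reads. The list gave 2 higher without DMSO 16 h replicate 2 and 8 lower without ES 16 h replicates 2 or 3 or ES 48 h replicate 2. Nuclear-encoded oxidative phosphorylation genes had 6 of 44 called higher (13.6%, beside 15.1% of all genes) and 0 lower. Uqcrfs1 of complex III had 81.5, 76.1 and 77.6 TPM at 16 h and 112, 105 and 114 TPM at 48 h (log2 change 0.49 ± 0.07, adjusted p = 0.00037). The list gave 1 higher without ES 16 h replicate 2 or ES 48 h replicate 3, 2 higher without ES 48 h replicates 1 or 2, 3 higher without ES 16 h replicate 1, 10 higher without DMSO 16 h replicate 3, 1 lower without DMSO 16 h replicates 2 or 3, and 3 lower without ES 16 h replicate 1. Glycolysis and hypoxia genes had 7 of 34 called higher (20.6%, beside 15.1% of all genes) and 5 lower (14.7%, beside 15.6%). The glycolytic enzymes Hk1, Gpi1 and Pfkm rose by 0.45, 0.39 and 0.42, and the neuronal glucose transporter Slc2a3 by 0.48. The hypoxia-induced demethylase Kdm3a and lactate exporter Slc16a3 fell, with log2 changes of -0.45 and -0.999. Of 13 mitochondrially encoded genes 0 were called higher and 2 lower (15.4%, beside 15.6% of all genes). Their median was -0.12, and it was 0.014 without ES 48 h replicate 1. The mitochondrial transcript mt-Atp8, which overlaps mt-Atp6, had 6139.7, 6724 and 6824 TPM at 16 h and 3739.7, 5168 and 4899 TPM at 48 h (log2 change -0.52 ± 0.13, adjusted p = 0.012). Its call was lost without the filter on low values, where more genes share the adjustment.

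ER chaperone and unfolded protein response genes had 7 of 23 called higher (30.4%, beside 15.1% of all genes) and 2 lower (8.7%, beside 15.6%). Canx, a lectin chaperone of the ER, had 210.1, 214 and 213 TPM at 16 h and 293, 269 and 263 TPM at 48 h (log2 change 0.37 ± 0.06, adjusted p = 0.0013). Derl1 and Sel1l, which clear misfolded proteins from the ER, rose by 0.39 and 0.43. The list gave 3 higher without ES 16 h replicates 2 or 3, 4 higher without ES 48 h replicates 1 or 2, 0 lower without ES 16 h replicate 1 or ES 48 h replicates 2 or 3, and 1 lower without DMSO 16 h replicate 1, DMSO 48 h replicates 1, 2 or 3 or ES 16 h replicates 2 or 3. The heat shock partner genes Hspa4, Hsph1 and Dnajb4 rose by 0.27, 0.26 and 0.27, and Stip1 fell (-0.31). Hsph1 was not called without both replicates 1 of ES, nor Dnajb4 with the 6 ES libraries alone. These were the 4 genes called of 19 (15.8% higher and 5.3% lower, beside 15.1% and 15.6% of all genes), and the list gave 4 lower without ES 16 h replicate 1. Among 26 NRF2 targets 1 was called higher (3.8%, beside 15.1% of all genes) and 5 lower (19.2%, beside 15.6%). NRF2 targets gave 2 higher without DMSO 16 h replicates 2 or 3 and 3 higher without ES 48 h replicate 1. Hmox1, which breaks down heme, had 54.9, 31.5 and 29.5 TPM at 16 h and 16.6, 18.9 and 18.7 TPM at 48 h (log2 change -1.003 ± 0.18, adjusted p = 0.002). Of 19 p53 targets 3 were called higher and 3 lower (15.8% each, beside 15.1% and 15.6% of all genes). Mdm2, which degrades p53, fell (-0.44), as did Trp53inp1 (-0.49), while Plk2, also an activity-regulated kinase, rose by 0.60 and Pmaip1 by 0.74. Lysosome genes gave 5 of 22 higher (22.7%, beside 15.1% of all genes) and 2 lower (9.1%, beside 15.6%). Ctsz, a protease rich in microglia, had 63.7, 33.7 and 31.7 TPM at 16 h and 10.1, 21.7 and 21.4 TPM at 48 h (log2 change -1.23 ± 0.31, adjusted p = 0.01). Scarb2 and Glb1 rose by 0.41 and 0.43. The lysosome list gave 11 higher without ES 16 h replicate 1 and 1 lower without ES 16 h replicates 1 or 2 or ES 48 h replicates 1 or 2. Neuronal splicing regulators had 5 of 22 called higher (22.7%, beside 15.1% of all genes) and 1 lower (4.5%, beside 15.6%). Rbfox1, which controls exons of ion channels, had 123, 125 and 142 TPM at 16 h and 182, 218 and 198 TPM at 48 h (log2 change 0.61 ± 0.10, adjusted p = 0.0013). Celf6, Nova2 and Rbfox2 rose by 0.79, 0.50 and 0.30. The list gave 0 lower without ES 16 h replicate 2 or ES 48 h replicates 2 or 3, 2 lower without DMSO 16 h replicates 2 or 3, and 3 lower without ES 16 h replicate 1 or ES 48 h replicate 1.

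The same interval in DMSO had 5101 called genes (32.6%), 2496 higher (16%) and 2605 lower (16.7%). It shares no library with the ES comparison, but both were tested in the same fit over all 12 libraries. Both tests thus use the same estimate of each gene's spread between libraries, and the calls are not independent. With only its own libraries in the fit, ES had 3510 called genes beside 4796, and DMSO had 5321 beside 5101. Of the 4796 genes called with ES, 3688 (76.9%) were called the same way in DMSO, which is 72.3% of the DMSO calls, and 4759 had the same sign there. Anxa3 and Nr4a1 were called in opposite directions. Across the 15625 genes the changes correlated at r = 0.870, a description over genes of 12 libraries and not a test. In the test of the difference between the changes 0 genes (0%) were called by limma, with a smallest adjusted p of 0.90, and 428 genes (2.74%) had an unadjusted p under 0.05. The median SE of a difference was 0.17 on the log2 scale, against a median size of 0.099 in the genes called with ES.

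**Figure D4:**
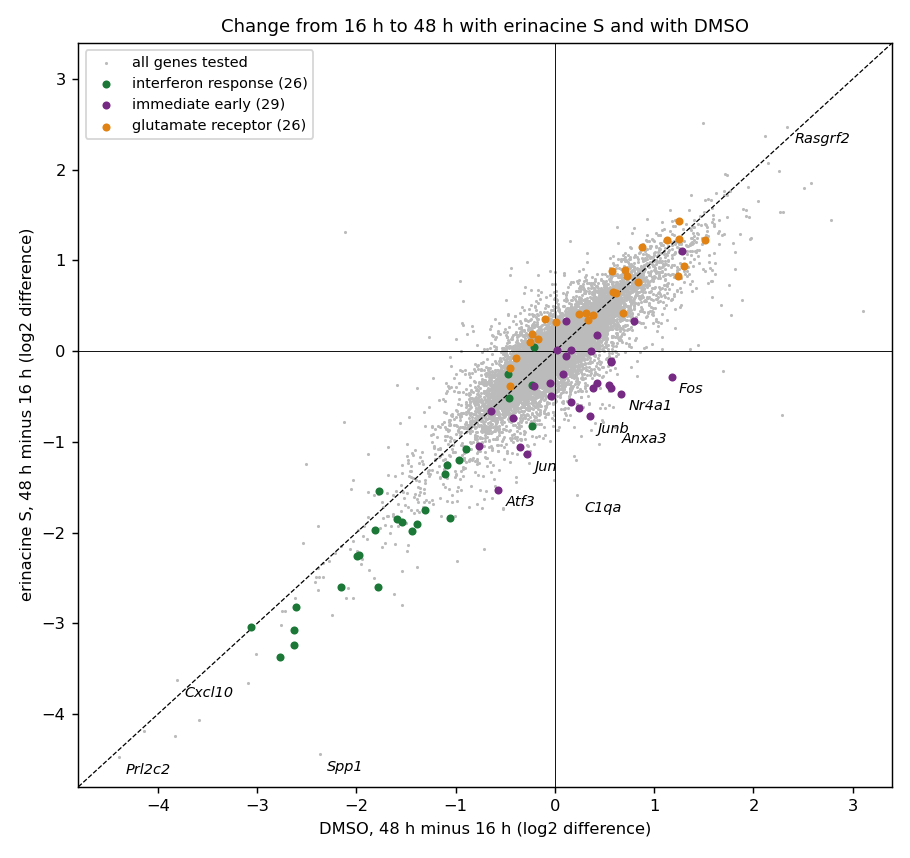
Change from 16 h to 48 h with ES against the change with DMSO, in log2 units, for each gene tested. Most points lay near the dashed line of equal change. Most interferon genes were low on both axes, most glutamate receptor genes high on both, and 28 of the 29 immediate early genes lay below the line. Of all 15625 genes tested 7824 lay below it.

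The immediate early genes, which neurons induce within minutes of calcium entry, had medians of opposite sign with the 2 treatments, although 0 of them were called in the test of the difference. With ES 1 of 29 was called higher and 11 lower, with a median of -0.38, and in DMSO 9 were called higher and 4 lower, with a median of 0.16. The difference was negative in 28 of the 29, beside 7824 of all 15625 genes. Of the 29, 14 had an unadjusted p under 0.05 for it, beside 2.74% of all genes. Other lists were as one-sided in sign. The difference was negative in 39 of 40 replication and mitosis genes and 12 of 12 oligodendrocyte lineage genes, of which 1 and 3 had an unadjusted p under 0.05. It was positive in 19 of 20 cholesterol synthesis enzymes. Without both replicates 1 of ES the immediate early list had 2 higher and 13 lower with ES, and without single libraries 2 higher without ES 48 h replicate 1. Jun fell with ES as given above, and in DMSO it had 139, 206 and 139 TPM at 16 h and 138, 119 and 134 TPM at 48 h (log2 change -0.28 ± 0.14, adjusted p = 0.15). Its change differed between treatments by -0.85 ± 0.20 (unadjusted p = 0.0013). Junb had 8.82, 7.73 and 7.64 TPM at 16 h and 4.15, 4.86 and 4.51 TPM at 48 h with ES. In DMSO it had 11.2, 9.38 and 7.32 TPM at 16 h and 12.5, 12.6 and 11 TPM at 48 h, a difference of -1.07 ± 0.19 (unadjusted p = 0.00011). Fos had 5.51, 6.62 and 9.16 TPM at 16 h and 7.48, 4.6 and 4.91 TPM at 48 h with ES (log2 change -0.28 ± 0.19, adjusted p = 0.29). In DMSO it had 17.9, 12 and 13.6 TPM at 16 h and 32.2, 33.4 and 35.1 TPM at 48 h (log2 change 1.18 ± 0.19, adjusted p = 0.001), a difference of -1.46 ± 0.27 (unadjusted p = 0.00019). For Fos the ES libraries of both times overlapped, and every DMSO 48 h library lay above every other library of the series. Nr4a1 had 11.7, 15 and 17.2 TPM at 16 h and 13.3, 8.2 and 9.64 TPM at 48 h with ES (log2 change -0.47 ± 0.17, adjusted p = 0.049). In DMSO it had 29, 22.8 and 24 TPM at 16 h and 39.97, 43.4 and 38.4 TPM at 48 h (log2 change 0.67 ± 0.17, adjusted p = 0.0096). With ES it lost its call without any 1 library other than ES 16 h replicate 1 and ES 48 h replicate 1. Ier2 and Dusp1, a nuclear protein gene and a phosphatase gene, fell with ES, by log2 changes of -1.05 and -0.73, and in DMSO stood at -0.35 and -0.42 (adjusted p = 0.074 and 0.0029). Inhba, the activin subunit gene that activity raises more slowly, was the single member called higher with ES: it had 18, 16.7 and 19.8 TPM at 16 h and 36, 47.9 and 37.7 TPM at 48 h (log2 change 1.11 ± 0.12, adjusted p = 0.0001). In DMSO it rose too, by 1.28. None of these differences passed after adjustment over all genes in the main fit. Those of Fos, Jun and Nr4a1 were called where each library was weighted by its agreement with its group.

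Outside that list, the smallest unadjusted p of the difference were in Anxa3, Spp1, C1qa, Peg13 and Cxcr4. Where each library was weighted by its agreement with its group, the difference was called for Anxa3, Spp1 and Peg13 but not for C1qa or Cxcr4. Anxa3, an annexin, had 5.14, 4.3 and 3.67 TPM at 16 h and 1.77, 1.83 and 2.43 TPM at 48 h with ES (log2 change -0.83 ± 0.18, adjusted p = 0.0054). In DMSO it had 5.36, 5.33 and 6.68 TPM at 16 h and 7.24, 8.68 and 12.6 TPM at 48 h (log2 change 0.60 ± 0.18, adjusted p = 0.025). Every ES library of 48 h lay below every ES library of 16 h and the DMSO libraries lay the other way round, with a difference of -1.44 ± 0.26 (unadjusted p = 0.00012). Spp1 fell in DMSO from 39.9, 29 and 49.8 TPM to 7.5, 7.86 and 5.03 TPM (log2 change -2.37 ± 0.28, adjusted p = 0.00015), and the change with ES differed from it by -2.08 ± 0.40 (unadjusted p = 0.00023). C1qa had 4.64, 3.16 and 3.66 TPM at 16 h and 5.51, 4.5 and 3.85 TPM at 48 h in DMSO, where its libraries overlapped, a difference of -1.81 ± 0.41 (unadjusted p = 0.0008). Peg13, an imprinted noncoding RNA gene, rose by 0.20 with ES and by 0.53 in DMSO (unadjusted p of the difference = 0.00097), and its ES call was lost without both replicates 1, with the 6 ES libraries alone and after quantile normalization. Cxcr4, the receptor for the chemokine CXCL12, had 32.5, 33.1 and 31.4 TPM at 16 h and 29.9, 28.2 and 27.4 TPM at 48 h with ES (log2 change -0.18 ± 0.08, adjusted p = 0.11). In DMSO it had 25.7, 30.7 and 28.9 TPM at 16 h and 17.2, 16.3 and 17.9 TPM at 48 h (log2 change -0.70 ± 0.08, adjusted p = 9.6e-05), with a difference of 0.52 ± 0.11 (unadjusted p = 0.0005). It was the only gene of the 10 with the smallest p whose difference was positive. For 5 genes picked from those above after their values were seen, the changes are set side by side: Isg15 changed by -3.06 in DMSO beside -3.03, Ddit3 by -1.03 beside -1.08, Grin2a by 1.51 beside 1.23, Slc12a5 by 1.16 beside 1.32 and Rasgrf2 by 2.34 beside 2.47. Not all genes named above lay so close, and Klf9 changed by 2.78 in DMSO beside 1.44. None of these pairs was called in the test of the difference, and a p that misses the threshold does not show that the changes were equal.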

How the data were processed

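Total RNA of 12 cultures was made into strand-specific libraries and sequenced, per the labels' protocols. The submitters' processing notes name HISAT2, StringTie 2.1.3, SAMtools, Trimmomatic 0.36, bcl2fastq 2.20, FastQC and the build GRCm38.p5. The authors deposited TPM per gene for each library, in which 0.0001 stands in place of 0 and was taken as 0. No read counts were used here, so the depth behind each value is unknown.

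Genes with a mean of at least 1 TPM over the 6 ES libraries (15625 of 51912) were tested by limma 3.58.1 (R 4.3.3) on the log2(TPM + 1) scale (eBayes with trend, 1 mean per group over all 12 libraries, two-sided tests, Benjamini-Hochberg adjustment over all genes, threshold 0.05). Contrasts were 48 h against 16 h with ES, the same in DMSO, and the difference of both. The code was tested on simulated data. Gene positions came from GENCODE vM21 and promoter sequences from RefSeq.

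Members and lists were chosen with earlier results of these data known. The genes named were the 12 largest rises and falls with no overlap of libraries, the 5 most abundant called genes each way, up to 5 called genes with the smallest p per list and direction, fixed developmental pairs and cell markers, and the 10 smallest p of the difference. Lists are described by counts and medians, with no set test. Alternatives changed the pseudocount, filter, scaling, weights, block and libraries. Some genes that the rule names are not reported here.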

Additional observations from a re-analysis of the deposited data

Results flagged for a closer look

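For Anxa3 the 3 ES libraries of 48 h all lay below those of 16 h, and the 3 DMSO libraries of 48 h all lay above those of 16 h. The difference of the changes was -1.44 on the log2 scale, with an adjusted p of 0.90 by limma over all genes. It was called with library weights.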

How the results depend on the processing

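The number of genes called between 16 h and 48 h with ES was 9353 with library weights, 4857 with the replicate number as a replicate block and 3510 with the 6 ES libraries alone. Leaving out single libraries gave 3123 to 5059 with ES and 3398 to 5962 in DMSO, and leaving out both replicates 1 of ES, a choice made after seeing the data, gave 4631 and 6597. The replicate block was kept out of the main values because same-numbered libraries of 16 h and 48 h with ES had deviations that correlated at r = -0.108, 0.0267 and -0.173. Same-numbered ES and DMSO libraries correlated at 0.485, 0.189 and 0.508 at 16 h and at -0.0152, 0.112 and -0.194 at 48 h, and the difference of the changes was fitted without pairing. In the test of the difference 12 genes were called with library weights, 5 without both replicates 1 of ES, 1 with a pseudocount of 0.1 and 1 with a replicate block within each time, which was added after seeing the data, and 0 were called without any single library. The cause of these moves was not tested. The 5 genes were Dtna, Fos, Npas4, Nr4a1 and Pcp4l1, all with a lower change with ES, and were named after their values were seen. Among the 12 genes called with library weights were Anxa3, Dtna, Fos, Jun, Npas4, Nr4a1, Peg13 and Spp1. Of the 12, 10 had a lower change with ES and 2 a higher change. Those weights ran from 0.195 for ES 48 h replicate 1 to 5.58 for ES 48 h replicate 2. Of 193 genes named in the text and called with ES, 174 were called the same way in all 24 alternatives that gave them a value, 19 lost the call in at least 1, and 0 changed sign.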
